A study of Mus musculus with 12 samples.

Results

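Livers of Mdr2-knockout mice aged 12 months were compared with livers of heterozygous mice of the same age across all genes on the array. The 6 arrays were those whose titles give homozygous or heterozygous genotype at 12 months, 3 of each, out of 12 arrays in the study. Each array held liver RNA of 1 male mouse. The knockout mice carry no intact copy of Mdr2, and the controls are not wild type, since they carry the inactivated allele on 1 chromosome. The remaining 6 arrays, 3 knockout and 3 heterozygous mice aged 3 months by their titles, entered the same model and served as the younger reference. The source labels of mouse 1 of each genotype among them give 12 months, and the titles were followed. Neither the strain nor any treatment is given in the sources used here, and they do not say whether nodules were present in the sampled tissue. The groups are called Het_12M, KO_12M, Het_3M and KO_3M.

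Mdr2 is the older name of Abcb4, a flippase of the hepatocyte canalicular membrane that passes phosphatidylcholine into bile. In bile without phospholipid, bile salts are not held in mixed micelles and injure the ducts. Mice lacking the transporter are known for chronic cholangitis with periductal scarring and, later in life, liver tumours, and the older age here stands for the late, precancerous stage.

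At 12 months, knockout livers had higher signals for genes of tissue injury and secretion (Lcn2, Slpi, Ly6d, Ptgds), for annexins and galectins, for collagens, for macrophage and MHC class II genes, and for the fatty acid uptake genes Cd36 and Lpl. They had lower signals for male-biased liver genes, led by Hsd3b5, for enzymes of amino acid and bile acid metabolism, and for several cytochromes P450. Genes driven by the circadian clock, such as Upp2 and Dbp, were also lower, although several of them had been higher in knockout than in heterozygous mice at 3 months. No scan session held both genotypes at 12 months, and a fit that included the session kept 100 of 888 calls. That fit called 0 collagens, 1 macrophage marker and 1 member of the MHC class II list.

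Signals are MAS 5.0 values on a linear scale, and 3 values for a group are always those of mice 1, 2 and 3. Differences are knockout minus heterozygous on the log2(signal + 16) scale, with the standard error from limma, and a gene was called when its Benjamini-Hochberg adjusted p was under 0.05. The offset of 16 understates changes of genes whose signal is low. The 99th percentile of signal was between 3044 and 3306 in Het_12M and between 2411 and 3057 in KO_12M. Knockout mouse 3 stood apart, with a highest signal of 6328.3 against 9470.5 to 12168.6 on the other 5 arrays and a 10th percentile of 9.4 against 5.8 to 6.5. Arrays were scanned in 3 sessions of 1 day, and no session held both genotypes at 12 months, so a within-session value could not be had. Session enters only through a fit that links the sessions by the 3-month arrays, given as the session fit. Its standard errors had a median 1.78 times that of the fit without sessions. The fluidics step of heterozygous mouse 1 recorded an error, and that of knockout mouse 3 used another script than the other 5 arrays. All 17 tested hepatocyte markers lay above the array median on all 6 arrays.

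Abcb4 itself was measured first. Its signals were 591.6, 600.7 and 675.3 in Het_12M and 293.0, 243.3 and 332.0 in KO_12M. Every knockout mouse was below every heterozygous mouse, and the knockout mean of 289.4 ± 44.5 (SD, n = 3) was 46.5% of the heterozygous mean of 622.5 ± 45.9 (SD, n = 3). The difference was -1.07 ± 0.14 (adjusted p = 0.000103), and it was -1.15 in the session fit (adjusted p = 0.0511). No source used here places the probes inside or outside the deletion, so the remaining signal does not check the labels.

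Of 12393 genes on the array, 8217 reached their array's median on at least 3 of 12 arrays and were tested. Among these, 524 genes (6.38%) were called higher and 364 (4.43%) lower in knockout liver at 12 months, while 7329 were not called. Changes of at least 2-fold made up 211 of the rises and 71 of the falls. Knockout and heterozygous signals did not overlap for 522 of the genes called higher and 361 of those called lower. Over all tested genes, 15.2% had every knockout signal above every heterozygous one and 13.9% every knockout signal below. Rises were 59.0% of the calls, but 45.6% when arrays were scaled to a common median, which moved the median difference of all genes by -0.08. Without heterozygous mouse 1 the falls numbered 241, and without heterozygous mouse 2 they numbered 223. The session fit called 75 genes higher and 39 lower. Of the 888 genes called, 880 kept their sign in it and 100 were still called. In no gene list did it call more than 7 members higher or 3 lower. Apart from the genes with the largest changes, those described below that stayed called in it were Lgals1, Anxa2, Lum, Bgn, Tgfbi, Cdh1, Cd74, Lyz2, Ccl9, Icam1, Ccnd1, Cdkn1a, Casp12, Cyp1a2, Cyp2c50, Gstm3, Gsta4, Lpl, Apoc2, Apoa4, Eci2, Ahcy, Aqp8 and Gys2.

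**Figure D1:**
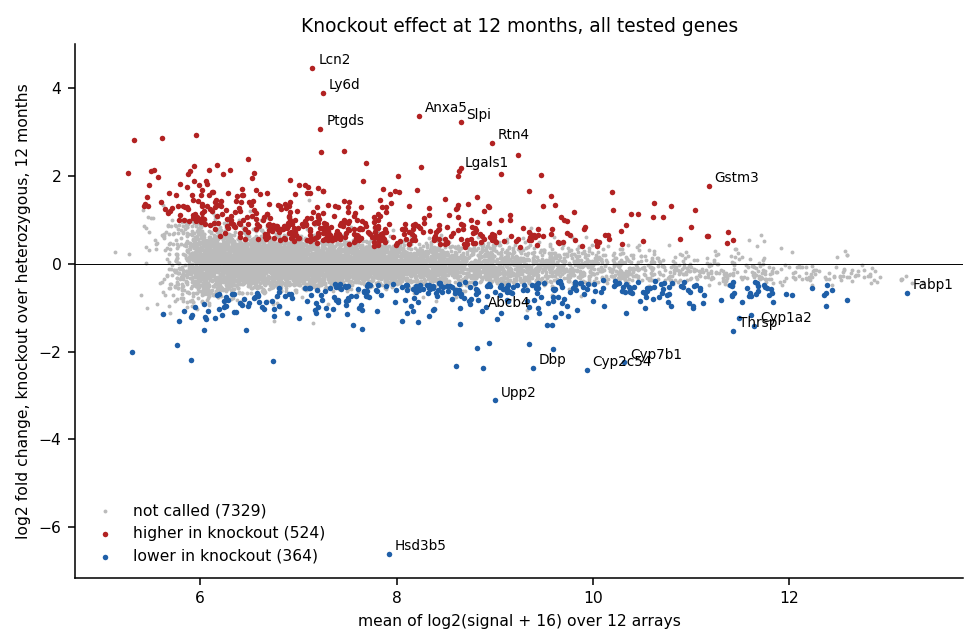
Difference between knockout and heterozygous liver at 12 months (log2 scale, vertical axis) against mean log2(signal + 16) over 12 arrays (horizontal axis) for the 8217 tested genes, 1 point per gene, with called genes coloured. The 524 higher and 364 lower genes lie at all signal levels, with Lcn2 at 4.46 and Hsd3b5 at -6.60 at the ends.

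The largest rise was that of Lcn2, which encodes a secreted siderophore-binding protein of injured epithelium and neutrophils. Its signals were 6.0, 39.3 and 9.1 in Het_12M and 455.1, 1601.5 and 414.4 in KO_12M. All 3 knockout mice were far above the heterozygous mice, with mouse 2 the highest of each group. The difference was 4.46 ± 0.43 (adjusted p = 3.52e-06), and since the heterozygous signals were low, its size depended on the offset, at 5.24 with an offset of 4 and 3.20 with an offset of 64.

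Ly6d, a surface protein of the Ly6 family, had signals of 17.5, 30.5 and 16.9 in Het_12M and 527.9, 627.6 and 472.9 in KO_12M. The 3 knockout mice were close to each other, and the difference was 3.90 ± 0.22 (adjusted p = 8.62e-09). For Slpi, a secreted inhibitor of leukocyte proteases, the signals were 111.4, 83.7 and 111.7 against 892.7, 1278.7 and 1111.4. The groups lay well apart, with a difference of 3.23 ± 0.15 (adjusted p = 1.78e-09). Anxa5, which binds exposed phosphatidylserine, had signals of 36.8, 73.2 and 166.7 in Het_12M and 952.6, 1065.7 and 910.6 in KO_12M. The heterozygous mice differed among themselves more than the knockout mice, and the difference was 3.38 ± 0.29 (adjusted p = 9.07e-07). Signals of Ptgds, a prostaglandin D2 synthase, were 65.6, 58.1 and 32.3 against 381.6, 479.4 and 876.0, with knockout mouse 3 the highest. Its difference was 3.08 ± 0.26 at 12 months (adjusted p = 5.63e-07) and 1.67 at 3 months.

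Rtn4, a reticulon of the endoplasmic reticulum, had nearly equal signals of 151.1, 154.7 and 152.8 in Het_12M, and 1184.1, 924.8 and 1318.3 in KO_12M. All 3 knockout mice were above all 3 heterozygous mice, and the difference was 2.76 ± 0.15 (adjusted p = 7.88e-09). Low heterozygous signals also marked Bicc1, an RNA-binding protein of duct and tubule epithelium (9.1, 5.3 and 7.0 against 126.4, 205.4 and 161.3), Tinag, a basement membrane protein (5.3, 4.7 and 2.3 against 154.1, 104.3 and 140.4), and Mmp12, the macrophage elastase (2.6, 4.1 and 3.6 against 118.0, 115.2 and 133.5). Their differences were 2.94, 2.88 and 2.83, and with an offset of 64 they were 1.67, 1.52 and 1.46. The basement membrane gene Nid1 had a difference of 2.58, and its other probe set one of 0.50. Lyz1, a lysozyme, had a difference of 2.48, and its other probe sets had 1.81 and 0.05. The remaining genes among the 15 largest rises were Cd36, described with the lipid genes, Cd14, the lipopolysaccharide co-receptor of macrophages (2.39), Pawr (2.25) and Cibar1 (2.23). Both these 15 rises and the 15 falls below were taken from called genes whose groups did not overlap. For them the lack of overlap was thus a condition of choice. Of the 15 rises, Cd14, Pawr and Cibar1 were no longer called in the session fit, with adjusted p of 0.0755, 0.221 and 0.0755.

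**Figure D2:**
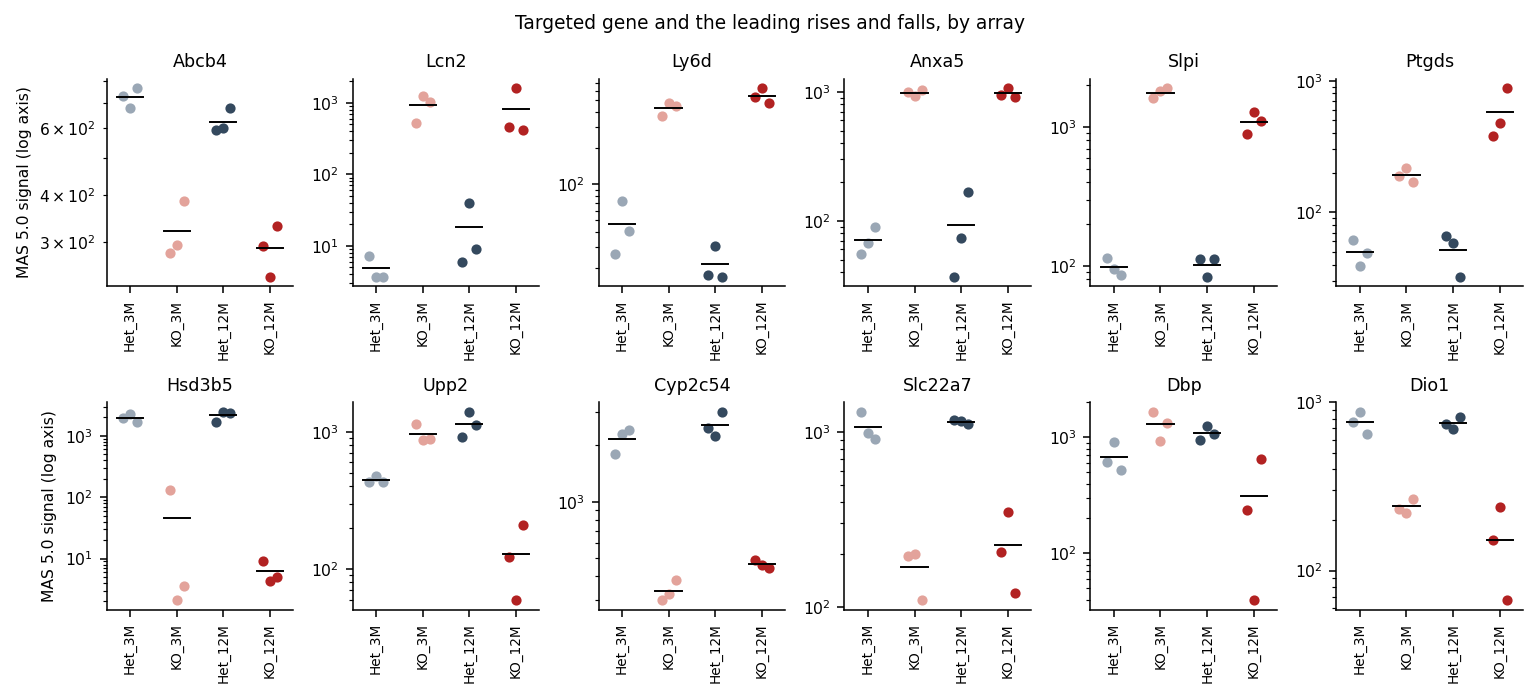
Signals of 12 genes on all 12 arrays by group (logarithmic vertical axis, MAS 5.0 signal), 1 point per mouse, with the mean of each group as a line. At 12 months the knockout points of Lcn2, Ly6d, Anxa5, Slpi and Ptgds lie above all heterozygous points, and those of Abcb4, Hsd3b5, Upp2, Cyp2c54, Slc22a7, Dbp and Dio1 lie below them.

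The largest fall was that of Hsd3b5, a ketosteroid reductase of male mouse liver. Its signals were 1667.7, 2480.0 and 2328.6 in Het_12M and 9.2, 4.3 and 5.1 in KO_12M. In knockout mice they were thus near or under the 10th percentile of their arrays. The difference was -6.60 ± 0.51 (adjusted p = 2.78e-07), at -7.74 with an offset of 4 and -4.97 with an offset of 64.

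Upp2, a liver uridine phosphorylase, had signals of 921.9, 1401.1 and 1119.1 in Het_12M and 122.4, 59.5 and 208.1 in KO_12M. All knockout signals were below all heterozygous ones, and the difference was -3.11 ± 0.27 (adjusted p = 9.07e-07). For Cyp2c54, a cytochrome P450, the signals were 2456.0, 2233.8 and 3016.7 against 487.8, 459.0 and 444.6. The knockout mice were nearly equal, and the difference was -2.42 ± 0.14 (adjusted p = 1.08e-08). Slc22a7, an organic anion transporter of the sinusoidal membrane, had signals of 1165.4, 1145.0 and 1104.0 in Het_12M and 206.5, 349.0 and 121.0 in KO_12M. The knockout mice ranged more widely than the heterozygous mice, and the difference was -2.37 ± 0.27. Signals of Dio1, the deiodinase that activates thyroid hormone, were 740.9, 693.8 and 819.3 against 151.4, 239.5 and 66.7. Knockout mouse 3 was the lowest, and the difference was -2.33 ± 0.27 (adjusted p = 2.46e-05).

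Other genes among the 15 largest falls were Dbp, described with the clock genes, Cyp7b1 and Cyp8b1, described with bile acid synthesis, Slc66a1 (-2.21), Cnmd, a chondromodulin (-2.19), Ly6i (-2.00), the carboxylesterase Ces1e (-1.93), the leukemia inhibitory factor receptor Lifr (-1.93), the complement regulator Susd4 (-1.85) and Hsd3b2 (-1.80). Cnmd signals were 176.9, 124.3 and 122.0 against 10.4, 4.5 and 56.0. Knockout mouse 3 was thus above the other knockout mice but below all heterozygous mice. In the session fit Slc22a7, Ly6i, Susd4, Cyp8b1 and Hsd3b2 were no longer called, with differences of -1.56, -1.75, -1.65, -1.83 and -1.73.

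Genes of scarring and of the cytoskeleton were higher in knockout liver, with few calls the other way. Among actin, annexin, S100 and galectin genes, 20 of 37 tested were called higher and 0 lower, with a median difference of 0.68 against -0.004 over all tested genes. Lgals1, a galectin, had signals of 152.5, 175.3 and 161.5 in Het_12M and 696.6, 795.4 and 812.0 in KO_12M. The groups were far apart, and the difference was 2.13 ± 0.12 (adjusted p = 8.62e-09). Anxa2, a membrane-binding annexin, had signals of 124.0, 147.5 and 132.4 against 578.6, 688.0 and 511.7, with a difference of 2.01 ± 0.14 (adjusted p = 1.01e-07). Its other probe sets had differences of 0.05 and 1.03. Others called higher in this list included Lgals3, Tmsb10, Vim, S100a6 and Msn.

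The collagen list had 6 of 15 tested members called higher and 0 lower, with a median of 0.49 at 12 months and 0.48 at 3 months. Col3a1, a fibrillar collagen of scar tissue, had signals of 156.6, 270.6 and 175.4 in Het_12M and 524.5, 613.3 and 431.1 in KO_12M. The groups did not overlap, and the difference was 1.34 ± 0.20 (adjusted p = 0.000271). The basement membrane collagens Col4a1 (1.19) and Col4a2 (1.12) rose, whereas Col1a1, the main fibrillar collagen chain, had a difference of 0.39 ± 0.25 and was not called (adjusted p = 0.365). No collagen was called in the session fit, in which the list's median was 0.33. Among matrix glycoproteins and proteoglycans, 9 of 21 were called higher and 1 lower. Lum, a keratan sulfate proteoglycan, had signals of 105.8, 149.4 and 71.7 against 486.5, 470.9 and 358.3, a difference of 1.90 ± 0.21 (adjusted p = 2.09e-05). Bgn (1.12) and Dcn (1.00), 2 small proteoglycans, rose as well, and Ecm1, a matrix glycoprotein, fell by 0.59. Of matrix proteases and their inhibitors, 6 of 29 were called higher and 0 lower, including Ctss (1.33) and Mmp14 (0.83), while Timp1, an inhibitor of matrix proteases, had a difference of 0.52 and was not called.

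Stellate cell and fibroblast markers had 7 of 11 called higher, with a summed signal of 1756 to 2273 in Het_12M and 3528 to 4146 in KO_12M. Of the 7, all but Pdgfrb were already counted in the matrix lists above, so these calls are not separate from those. Pdgfrb, the platelet-derived growth factor receptor of stellate cells, had signals of 28.8, 43.0 and 26.4 against 158.0, 174.2 and 96.4 (1.68 ± 0.23, adjusted p = 0.000151). Acta2, the smooth muscle actin of activated stellate cells, had a difference of 0.14 ± 0.22 and was not called (adjusted p = 0.753). Because bulk liver was measured, more cells of a type and more RNA per cell cannot be told apart here. The part of cell number in the matrix genes was not tested. In the TGF-beta list 4 of 26 members were called higher (15.38%) and 1 lower (3.85%), against 6.38% and 4.43% of all tested genes. The list's median was 0.11, and -0.04 without knockout mouse 3. Tgfbi, a matrix protein induced by TGF-beta, had signals of 111.9, 171.6 and 155.4 against 490.1, 505.9 and 492.2 (1.68 ± 0.14, adjusted p = 8.48e-07).

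Of keratin, claudin and ductular genes, 6 of 24 tested were called higher and 0 lower. Cdh1, the epithelial cadherin, had signals of 99.3, 146.7 and 116.7 in Het_12M and 451.2, 387.2 and 378.5 in KO_12M. Every knockout mouse was above every heterozygous mouse, and the difference was 1.63 ± 0.15 (adjusted p = 1.86e-06). The keratins of simple epithelium Krt8 (1.08) and Krt18 (0.85) also rose. The summed signal of 10 cholangiocyte markers was 345 to 366 in Het_12M and 652 to 1015 in KO_12M, but only 4 of them passed the filter and Bicc1 alone was called. Epcam, a marker of ducts, overlapped between the groups and was not called (0.87 ± 0.43, adjusted p = 0.225).

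**Figure D3:**
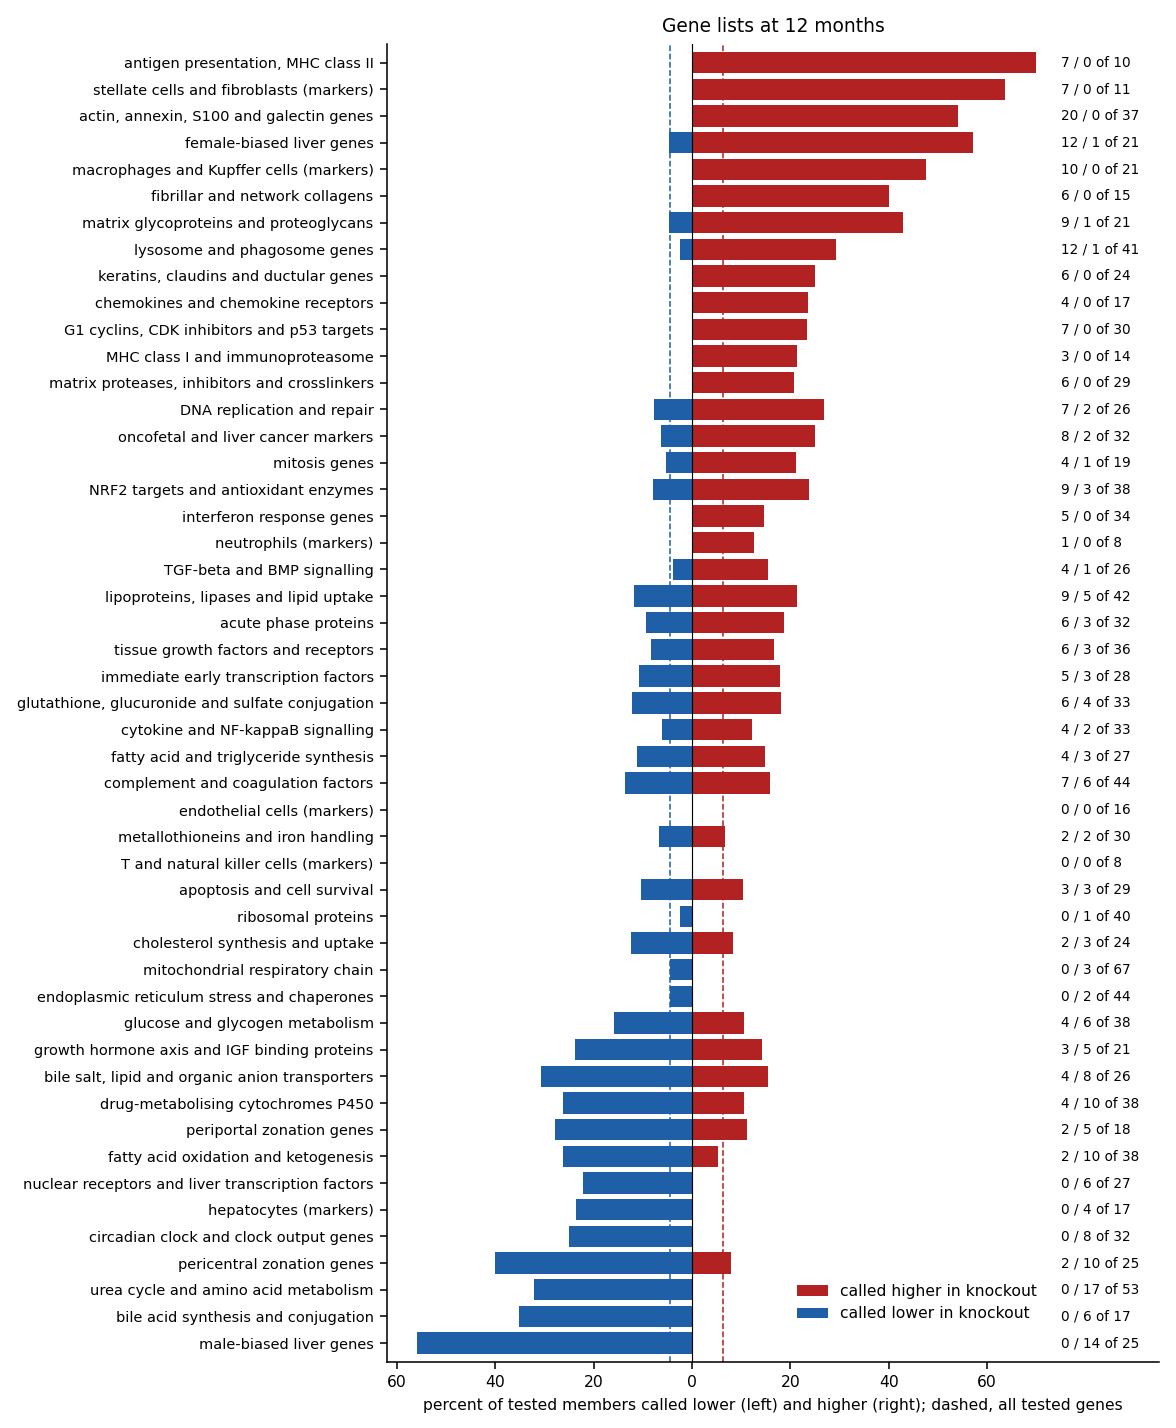
Percentage of the tested members of each gene list that were called higher or lower in knockout liver at 12 months (horizontal axis), for lists with at least 8 tested members, with dashed lines at the 6.38% and 4.43% of all tested genes. The MHC class II antigen presentation list, which includes processing genes, has 7 of 10 members higher, and male-biased genes 14 of 25 lower.

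Genes of macrophages and antigen presentation were higher, while the lymphocyte markers that passed the signal filter gave no call. Of 21 tested macrophage and Kupffer cell markers, 10 were called higher and 0 lower, with a median of 0.72 at 12 months and 1.06 at 3 months. Their summed signal was 3657 to 4023 in Het_12M and 6702 to 7619 in KO_12M, and 16 of the 21 lay above the array median on all 6 arrays. Lyz2, the lysozyme of myeloid cells, had signals of 233.8, 227.8 and 245.8 against 819.5, 1134.9 and 1064.3. The heterozygous mice were close together and the knockout mice all higher, by 2.01 ± 0.16. The complement genes C1qa (1.28) and C1qc (1.32), made by macrophages, rose too. Only 8 of 20 T and natural killer cell markers and 6 of 15 B and plasma cell markers on the array passed the filter, and 0 were called. The remaining lymphocyte markers were not tested. Of 16 tested endothelial markers, 0 were called. The neutrophil list had 1 of 8 called, which was Lcn2.

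The list of MHC class II antigen presentation, whose genes process and present peptides from phagocytosed material, had 7 of 10 tested members called higher and 0 lower. Its median was 0.87. The called members were Cd74, H2-Aa, H2-Ab1 and H2-DMa, and the processing genes Lgmn, Ctss and Ifi30, which are not class II genes themselves. Cd74, the invariant chain, had signals of 490.3, 470.1 and 541.4 in Het_12M and 1122.1, 1160.6 and 776.6 in KO_12M. Knockout mouse 3 was the lowest of the knockout mice but above all heterozygous mice. The difference was 0.98 ± 0.15 (adjusted p = 0.000308). For H2-Aa, a class II chain, the signals were 249.5, 280.5 and 327.9 against 564.7, 471.7 and 516.8, with a difference of 0.83 ± 0.13 (adjusted p = 0.000558). Lysosome and phagosome genes had 12 of 41 called higher, Lgmn and Ctss again among them, and 1 lower. Hexa, a lysosomal hexosaminidase, had a difference of 1.47.

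Interferon response genes had 5 of 34 tested members called higher (14.71%, against 6.38% of all tested genes) and 0 lower. The list's median was 0.20 at 12 months and 0.57 at 3 months. Without knockout mouse 3, 3 of them were called higher, and in the session fit 0. Bst2, an antiviral membrane protein, had signals of 219.4, 215.7 and 189.3 against 359.6, 418.3 and 428.1. The groups did not overlap, and the difference was 0.90 ± 0.18 (adjusted p = 0.00417). MHC class I and immunoproteasome genes had 3 of 14 called higher, with a median of 0.24 at 12 months and 0.81 at 3 months. The 3 were Psmb8, Psmb9 and Ubd, so no MHC class I gene was called, and the session fit called 0 of the list. Psmb8 and Psmb9 were also counted among the interferon response genes. Psmb8, a catalytic immunoproteasome subunit, had signals of 15.6, 53.9 and 68.4 against 176.2, 155.4 and 166.5 (1.67 ± 0.28, adjusted p = 0.000862). Ubd, a ubiquitin-like modifier, had a difference of 1.76. Among chemokines, 4 of 17 were called higher, with Ccl9 at 614.5, 518.0 and 551.6 against 1158.0, 1207.6 and 1189.3 (1.06 ± 0.12, adjusted p = 2.31e-05). Of cytokine and NF-kappaB genes, 4 of 33 were called higher (12.12%) and 2 lower (6.06%), against 6.38% and 4.43% of all tested genes. The called members included the adhesion molecule Icam1 (2.14) and the receptor Lifr (-1.93).

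The start regions of 3 genes from these lists are shown because genes of the same list were higher together and short motifs of known factors can be seen in them. They are RefSeq sequences of GRCm38.p6, from 250 bases before to 50 after the gene start, 5′ to 3′ on the gene's strand, with the motif in capitals.
Bst2, chr8:71537423-71537722, minus strand: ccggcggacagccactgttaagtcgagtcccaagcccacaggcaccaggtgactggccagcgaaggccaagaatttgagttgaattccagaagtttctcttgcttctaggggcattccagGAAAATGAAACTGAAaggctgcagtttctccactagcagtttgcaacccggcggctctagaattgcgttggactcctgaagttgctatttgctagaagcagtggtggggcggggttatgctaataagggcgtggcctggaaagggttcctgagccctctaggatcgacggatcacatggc
H2-Aa, chr17:34287774-34288073, minus strand: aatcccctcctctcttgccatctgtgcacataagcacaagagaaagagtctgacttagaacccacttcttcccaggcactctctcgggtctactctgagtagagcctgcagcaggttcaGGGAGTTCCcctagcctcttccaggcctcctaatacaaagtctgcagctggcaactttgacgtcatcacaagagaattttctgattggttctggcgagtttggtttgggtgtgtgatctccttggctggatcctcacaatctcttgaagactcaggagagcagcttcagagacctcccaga
Anxa2, chr9:69453433-69453732, plus strand: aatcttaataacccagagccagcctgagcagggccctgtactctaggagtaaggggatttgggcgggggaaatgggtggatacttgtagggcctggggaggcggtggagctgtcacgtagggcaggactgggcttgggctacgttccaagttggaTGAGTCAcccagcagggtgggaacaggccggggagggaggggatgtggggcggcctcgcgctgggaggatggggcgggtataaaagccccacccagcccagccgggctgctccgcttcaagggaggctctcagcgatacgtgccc
In Bst2 the capitals mark 2 overlapping matches to GAAANNGAA, the core of interferon-stimulated elements, which begin 130 and 124 bases before the start. In H2-Aa they mark GGGANTTCC, a form of the NF-kappaB site, 131 bases before the start, and in Anxa2 TGANTCA, the AP-1 site, 95 bases before it. Motifs were searched on both strands. Among all 32851 windows, 8.56% held GAAANNGAA, 1.68% GGGANTTCC and 7.81% TGANTCA. Called members held GAAANNGAA in 2 of 5 interferon windows, GGGANTTCC in 1 of 7 class II windows and TGANTCA in 2 of 20 actin, annexin, S100 and galectin windows. The class II windows belonged to 5 of 7 called members and those of the actin list to 17 of 20, some with several windows. Other motifs were searched too. The E-box CACGTG was in 4 of the 20 and 2 of the 7 windows, and the STAT motif TTCNNNGAA in 2 of the 5. Among all windows these motifs had shares of 7.15% and 8.3%. A match describes letters and not binding.

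Acute phase proteins of the liver had 6 of 32 tested members called higher and 3 lower, with a median of -0.01. Without knockout mouse 3 the median was 0.14, with 8 called higher and 2 lower, and it was 0.15 under quantile normalization and 0.20 in the session fit. The medians of knockout mice 1, 2 and 3 relative to the heterozygous mean were 0.10, 0.13 and -0.25. Saa1, a serum amyloid, had signals of 186.5, 276.3 and 255.4 against 829.6, 1086.0 and 393.4, with knockout mouse 3 nearest to the heterozygous mice (1.52 ± 0.34, adjusted p = 0.00687). Steap4, a metalloreductase, had a difference of 1.20, with knockout mouse 2 at 1370.9 and the other 2 knockout mice at 529.8 and 526.5. The classical acute phase gene Hp, for haptoglobin, was not called (0.21 ± 0.17, adjusted p = 0.502). Complement and coagulation factors had 7 of 44 called higher and 6 lower, and the higher ones included the macrophage-derived C1qa and C1qc. Without knockout mouse 3 these counts were 6 and 3, with a median of -0.05 in place of -0.14, and in the session fit they were 1 and 0.

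Cell cycle genes were partly higher. DNA replication and repair genes had 7 of 26 tested members called higher and 2 lower, with a median of 0.50 at 12 months and 0.69 at 3 months, and 0 were called in the session fit. The list had 3 members called higher and 2 lower without knockout mouse 3. Rrm1, a ribonucleotide reductase subunit, had signals of 21.1, 60.4 and 24.3 in Het_12M and 108.2, 155.3 and 124.1 in KO_12M. The groups did not overlap, and the difference was 1.57 ± 0.27 (adjusted p = 0.00088). In the mitosis list 4 of 19 were called higher and 1 lower. Cdk1, the mitotic kinase, had a mean signal of 42.3 ± 4.3 (SD, n = 3) against 109.2 ± 16.5 (SD, n = 3), a difference of 1.10 ± 0.24 (adjusted p = 0.0067) that was 0.31 in the session fit. Cdc20, an activator of mitotic exit, had a difference of 0.99.

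Of G1 cyclins, CDK inhibitors and p53 targets, 7 of 30 were called higher and 0 lower, so that a D cyclin and growth arrest genes rose beside each other. Ccnd1, cyclin D1, had signals of 499.8, 449.8 and 509.0 against 1090.5, 1267.4 and 1387.5, with a difference of 1.33 ± 0.18 (adjusted p = 9.85e-05). Cdkn1a, the p21 inhibitor of cyclin-dependent kinases, had signals of 25.9, 25.1 and 60.0 against 152.3, 316.4 and 156.3. The difference was 2.07 ± 0.33 (adjusted p = 0.000558), but its other probe set had -0.08. Btg2, an antiproliferative gene, had a difference of 1.29. Oncofetal and liver cancer markers had 8 of 32 called higher and 2 lower. Of the 8, Slpi, Ly6d and Lcn2 were already described among the largest rises. Slpi and Lcn2 were also counted as acute phase proteins, so these calls are not separate from those. Golm1, a Golgi protein known from liver cancer, had signals of 106.3, 93.0 and 100.9 against 223.3, 336.1 and 166.3 (1.10 ± 0.19, adjusted p = 0.00124). Scd2, a stearoyl-CoA desaturase, had a difference of 1.62 at 12 months and 0.36 at 3 months, and Vegfa, the angiogenic factor, fell by 0.75. Igf2, a fetal growth factor, overlapped between the groups and was not called (-0.09 ± 0.41, adjusted p = 0.922).

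Among tissue growth factors and receptors, 6 of 36 were called higher and 3 lower. Axl, a receptor tyrosine kinase, had a mean signal of 23.3 ± 14.3 (SD, n = 3) against 123.5 ± 12.3 (SD, n = 3). All knockout signals were above all heterozygous ones, and the difference was 1.89 ± 0.29 (adjusted p = 0.000338). Gas6, the ligand of Axl, rose by 0.89 and had signals of 171.1, 162.3 and 184.2 against 323.1, 323.7 and 350.9. In the apoptosis list 3 of 29 were called higher and 3 lower (10.34% each), against 6.38% and 4.43% of all tested genes. The list's median was -0.05, and the 3 higher ones were the caspases Casp1, Casp4 and Casp12. Casp12 had signals of 44.4, 55.0 and 47.5 against 203.6, 203.7 and 147.2, with a difference of 1.62 ± 0.19 (adjusted p = 2.83e-05).

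Bile acid synthesis and conjugation genes had 0 of 17 tested members called higher and 6 lower, with a median of -0.29 at 12 months and -0.19 at 3 months. Cyp7b1, which hydroxylates oxysterols in the acidic pathway, had signals of 2561.9, 3195.5 and 3634.0 in Het_12M and 862.2, 669.0 and 457.2 in KO_12M. The groups were far apart, and the difference was -2.24 ± 0.25 (adjusted p = 1.87e-05). Cyp8b1, the sterol hydroxylase that directs synthesis to cholic acid, had signals of 973.5, 1262.0 and 1201.7 against 604.4, 239.1 and 199.8. Knockout mouse 1 was nearest to the heterozygous mice, and the difference was -1.83 ± 0.30. Cyp7a1, the rate-limiting enzyme of the classical pathway, had signals of 1006.7, 783.5 and 679.2 against 1282.1, 549.3 and 1122.5. The groups overlapped and it was not called (0.19 ± 0.28, adjusted p = 0.753).

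Bile salt, lipid and organic anion transporters had 4 of 26 tested members called higher and 8 lower. Abcb11, the bile salt export pump of the canaliculus, had signals of 886.6, 876.9 and 864.7 in Het_12M and 1330.1, 1545.3 and 1297.0 in KO_12M. Every knockout mouse was above the heterozygous mice, and the difference was 0.65 ± 0.13 (adjusted p = 0.0032). Slc10a1, the sinusoidal bile salt importer, had signals of 2068.6, 2703.0 and 2298.7 against 1319.2, 1274.0 and 1236.8, with a difference of -0.87 ± 0.13 (adjusted p = 0.000259). Slco1a1, a sinusoidal organic anion importer that is also male-biased, fell by 0.85. These 3 genes were not called in the session fit, in which their differences were 0.54, -0.82 and -0.98.

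Nuclear receptors and liver transcription factors had 0 of 27 tested members called higher and 6 lower, with a median of -0.26, and 0 called in the session fit. Nr1h4, the bile acid receptor FXR, had signals of 453.1, 459.8 and 435.1 against 294.9, 281.3 and 262.9. Neither group spread much, and the difference was -0.66 at 12 months (adjusted p = 0.00354) and 0.30 at 3 months. Nr1i3, the xenobiotic receptor CAR, had signals of 388.7, 327.3 and 418.8 against 245.5, 215.2 and 185.0, and a difference of -0.77. Nr0b2, the FXR-induced repressor SHP, had a difference of 0.36 and was not called at 12 months (adjusted p = 0.427). Hnf4a was called lower at -0.39, but its other 3 probe sets had differences of 0.10 to 0.22.

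Drug-metabolising cytochromes P450 had 4 of 38 tested members called higher and 10 lower, with a median of -0.36 at 12 months and -0.09 at 3 months. These counts were 2 and 7 without knockout mouse 3. Cyp1a2 had signals of 3909.2, 4476.0 and 4914.6 in Het_12M and 1829.4, 1715.2 and 1453.3 in KO_12M. The groups were well apart, and the difference was -1.40 ± 0.17 (adjusted p = 3.23e-05). Cyp2c50 (-1.38) and Cyp2e1 (-0.81) fell as well, while Cyp2c38 went the other way, from 201.7, 167.0 and 224.2 to 417.9, 467.0 and 620.0 (1.27 ± 0.16, adjusted p = 7.7e-05). Pericentral genes, to which Cyp1a2 and Cyp2e1 belong, had 2 of 25 called higher and 10 lower, and periportal genes 2 of 18 higher and 5 lower.

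Conjugation enzymes had 6 of 33 tested members called higher and 4 lower. Gstm3, a glutathione transferase, had signals of 902.2, 1165.1 and 1202.2 against 4062.9, 4124.7 and 3202.0. All knockout mice were above the heterozygous mice, and the difference was 1.79 ± 0.17 (adjusted p = 2.42e-06). Gsta4, which conjugates lipid aldehydes, rose by 0.99. Of NRF2 targets and antioxidant enzymes, 9 of 38 were called higher and 3 lower, including the glutathione peroxidase Gpx4 (1.07) and the thioredoxin reductase Txnrd1 (0.66). None of the NRF2 list was called in the session fit, in which 0 were higher and 0 lower.

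Lipoprotein, lipase and lipid uptake genes had 9 of 42 tested members called higher and 5 lower, with a median of -0.16. Cd36, the fatty acid translocase, had signals of 43.3, 43.2 and 51.5 in Het_12M and 334.5, 283.1 and 433.4 in KO_12M. The groups did not overlap, and the difference was 2.55, with 2.55 and 0.59 on its other probe sets. Lpl, lipoprotein lipase, had signals of 193.0, 174.8 and 158.2 against 821.2, 908.1 and 820.7, a difference of 2.18 ± 0.15 (adjusted p = 6.36e-08). The apolipoproteins Apoc2 (1.22) and Apoa4 (1.38) rose too, and the members called lower were Pon1, Fabp1, Mgll, Saa4 and Sort1. Fabp4, a fatty acid binding protein of adipocytes and macrophages, had signals of 38.2, 49.4 and 17.0 against 220.6, 92.1 and 252.0, and differences of 1.96 at 12 months and 0.02 at 3 months. Lpl and Fabp4 were also the called members of 3 tested adipocyte markers, whose summed signal on the array was 7589 to 8786 in Het_12M and 5944 to 8630 in KO_12M.

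Fatty acid oxidation and ketogenesis genes had 2 of 38 tested members called higher, Pdk4 and Vnn1, and 10 lower, with a median of -0.29. Ppara, the receptor that drives these genes, had signals of 461.9, 614.6 and 490.2 against 311.8, 214.5 and 335.7 (-0.84 ± 0.18, adjusted p = 0.00578), and a difference of 0.30 at 3 months. Eci2, an enoyl-CoA isomerase, fell by 0.89. Pdk4, the pyruvate dehydrogenase kinase of the fasted state, rose by 2.11 and had signals of 16.9, 23.4 and 21.6 against 198.7, 118.1 and 120.8. In fatty acid and triglyceride synthesis 4 of 27 were called higher and 3 lower. Fasn, fatty acid synthase, had signals of 896.7, 984.6 and 613.0 against 1321.5, 1603.2 and 1691.1 (0.90 ± 0.19, adjusted p = 0.0045), and Dgat2, which completes triglyceride synthesis, fell by 0.82.

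Urea cycle and amino acid metabolism had 0 of 53 tested members called higher and 17 lower, with a median of -0.39 at 12 months and -0.01 at 3 months. The median was -0.24 in the session fit, which called 1 member lower, and -0.30 without knockout mouse 3, with 15 called lower. Ahcy, which hydrolyses S-adenosylhomocysteine, had signals of 4170.6, 4244.8 and 4150.5 in Het_12M and 2517.5, 2219.3 and 2196.9 in KO_12M. Both groups were tight, and the difference was -0.86 ± 0.12 (adjusted p = 0.000159). Mat1a, the liver enzyme that makes S-adenosylmethionine, had signals of 3094.2, 2673.1 and 2255.3 against 1626.2, 907.1 and 1574.6, with differences of -0.99 at 12 months and 0.10 at 3 months. Arg1, the last enzyme of the urea cycle, fell by 0.72, and Slc1a2, a glutamate transporter of pericentral hepatocytes, by 1.51.

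Hepatocyte markers moved in the same direction as these metabolic lists. Of 17 tested markers, 4 were called lower and 0 higher, and all 17 had differences below 0, with a median of -0.35. The called ones were Hpd, Tdo2, Fah and Hnf4a, which were already counted in the amino acid or the nuclear receptor list. These calls are therefore not separate from those of the metabolic and receptor lists. Their summed signal was 93356 to 103874 in Het_12M and 62211 to 91439 in KO_12M, with knockout mouse 3 the lowest. The median was -0.18 without that mouse, -0.03 under quantile normalization and -0.07 in the session fit. Alb, albumin, had signals of 8497.3, 9682.6 and 9364.2 against 8652.5, 8375.6 and 5066.1 and was not called (adjusted p = 0.227). The part of hepatocyte number in the lower metabolic genes was not tested.

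Male-biased liver genes had 0 of 25 tested members called higher and 14 lower, with a median of -0.70 at 12 months and -0.20 at 3 months. Female-biased genes had 12 of 21 called higher and 1 lower, with medians of 0.54 and 0.17. All mice were male, so these names describe which sex has the higher level in normal mouse liver. In adult mice, pulsatile growth hormone acting through STAT5B keeps most of this pattern. Without knockout mouse 3 the male-biased median was -0.53, with 1 member called higher and 11 lower, and the session fit gave -0.53 with 0 higher and 2 lower. The female-biased median was 0.57 without that mouse and 0.51 in the session fit.

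Hsd3b5, described above, and Cyp7b1 led the male-biased list. Nudt7, a peroxisomal coenzyme A hydrolase, had signals of 3623.1, 3753.0 and 3982.0 in Het_12M and 2213.2, 1498.8 and 1247.9 in KO_12M. The heterozygous mice were nearly equal, and the difference was -1.23 ± 0.17 (adjusted p = 0.000143). Sult5a1, a sulfotransferase, had signals of 394.2, 359.9 and 423.8 against 101.4, 192.2 and 170.3, with a difference of -1.30 ± 0.19 (adjusted p = 0.0002). The urinary protein gene Mup5 fell by 1.26, although Mup genes are near-identical copies and its probe set may not tell them apart. Cyp4a12a, another male-biased P450, was not called (-0.40 ± 0.18, adjusted p = 0.166).

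In the female-biased list Aqp8, a water channel, had signals of 292.2, 372.7 and 358.1 in Het_12M and 1662.3, 1332.6 and 1348.7 in KO_12M. All knockout mice were higher, and the difference was 2.04 ± 0.14 at 12 months (adjusted p = 9.13e-08) and 0.74 at 3 months. The difference between the ages was 1.29 (adjusted p = 0.00941). Rtn4, Lpl, Cd36, Cyp2c38 and Gas6, described above, belong to this list too, and Lifr was its 1 member called lower. In the growth hormone axis 3 of 21 were called higher and 5 lower, and without knockout mouse 3 the latter were 3. Ghr, the growth hormone receptor, had signals of 3303.0, 3530.5 and 4087.9 against 2500.1, 1904.6 and 2187.5, a difference of -0.73 ± 0.14 (adjusted p = 0.0026). Igfals, which holds IGF1 in the circulating complex, fell by 1.04 and had a difference of 0.11 at 3 months. Stat5b was not called (0.22 ± 0.13, adjusted p = 0.329).

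**Figure D4:**
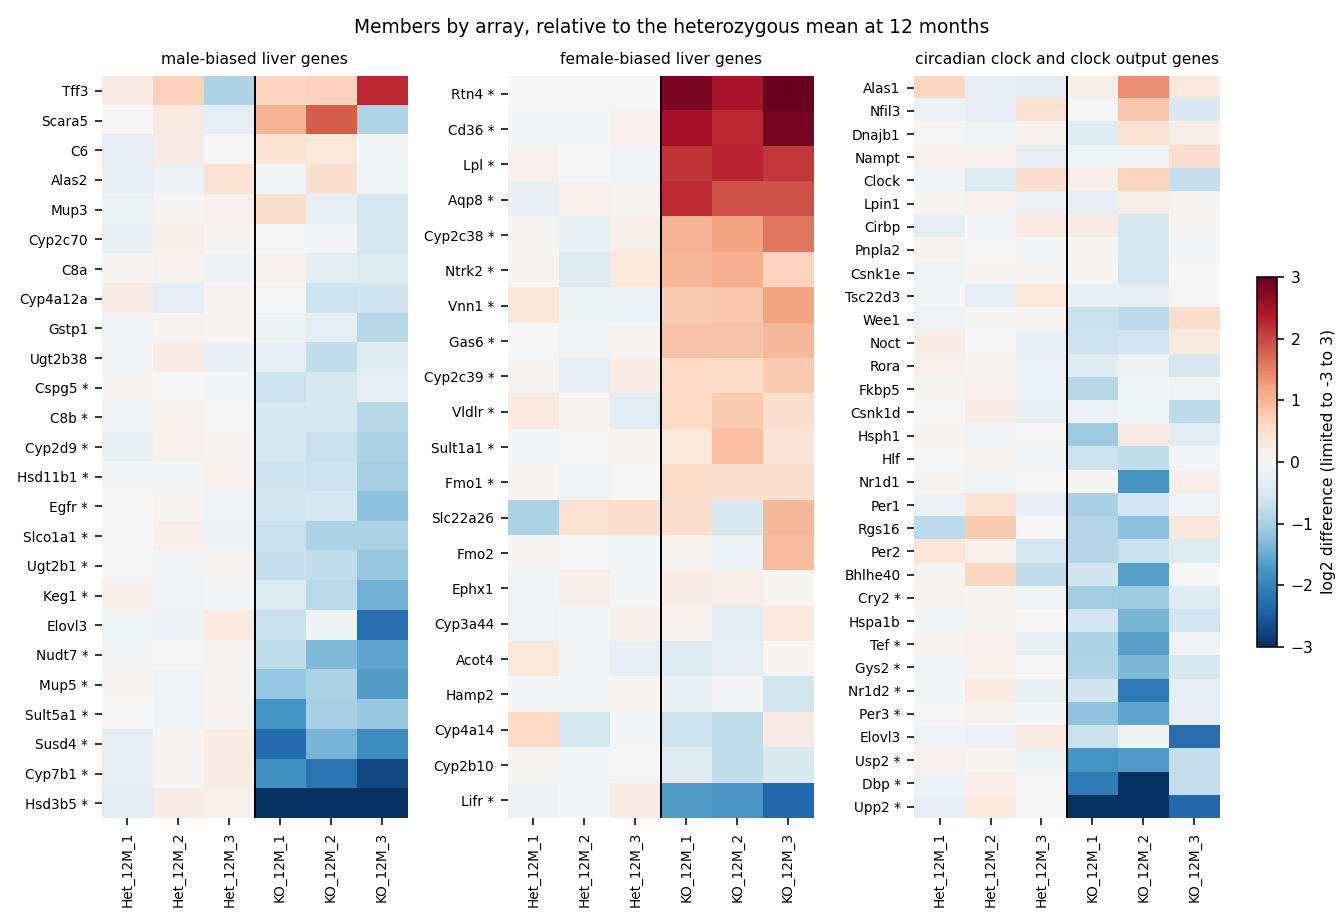
Log2 signal of tested male-biased, female-biased and clock genes on each 12-month array relative to the Het_12M mean (colour scale), with called genes marked by an asterisk. Male-biased genes are below the heterozygous mean on most knockout arrays and female-biased genes above it, while clock genes differ among the 3 knockout mice, with medians of -0.61, -0.58 and -0.11.

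Clock and clock output genes had 0 of 32 tested members called higher and 8 lower, with a median of -0.43 at 12 months and 0.44 at 3 months. Without knockout mouse 3 the median was -0.65, with 10 called lower, and in the session fit it was -0.57, with 3 called lower. Dbp, a transcription factor whose level swings strongly over the day, had signals of 943.1, 1242.2 and 1061.2 in Het_12M and 238.7, 39.6 and 651.4 in KO_12M. The knockout mice ranged widely, from mouse 2 to mouse 3, and all were below the heterozygous mice, with a difference of -2.37 ± 0.55 (adjusted p = 0.00932). Gys2, the liver glycogen synthase, fell by 0.92. Per3, a period gene, had signals of 226.4, 233.1 and 213.8 against 87.4, 64.3 and 185.1, again with mouse 3 nearest to the controls. Its difference was -1.02 (adjusted p = 0.0108), and without knockout mouse 2 it was -0.74 (adjusted p = 0.0533). The hour at which tissue was taken is not given in the sources used here, and its part in these differences was not tested.

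Housekeeping lists had few calls, all of them lower, while 6.38% of all tested genes were called higher and 4.43% lower. Ribosomal proteins had 0 of 40 called higher and 1 lower, respiratory chain subunits 0 of 67 higher and 3 lower (1 without knockout mouse 3), and endoplasmic reticulum stress genes 0 of 44 higher and 2 lower. Their medians were each -0.18, against -0.004 over all tested genes, and 11 of 40, 13 of 67 and 13 of 44 differences were above 0. Under quantile normalization the medians were -0.0, -0.08 and -0.09, and that of the endoplasmic reticulum list was 0.10 in the session fit. Markers of the exocrine pancreas, a neighbouring tissue, had a summed signal of 865 to 1086 in Het_12M and 477 to 522 in KO_12M, and Cela1, an elastase, was 1 of 3 tested and fell by 1.36. Erythroid markers had 1 of 2 tested called higher, and of 2 mast cell and 3 muscle markers 0 were called. Metallothionein and iron genes, with 2 of 30 higher and 2 lower, and cholesterol synthesis, with 2 of 24 higher and 3 lower, had medians of -0.16 and 0.07. Glucose and glycogen genes had 4 of 38 called higher and 6 lower, immediate early transcription factors 5 of 28 higher and 3 lower, and dendritic cell markers 2 of 7 higher and 0 lower.

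The knockout effect at 12 months was set beside that at 3 months, which rests on other mice. At 3 months 813 genes (9.89%) were called higher and 1002 (12.2%) lower. Higher at both ages were 327 genes, which is 62.4% of the 12-month list and 40.2% of the 3-month list. Lower at both ages were 145 genes, 39.8% of the 12-month and 14.5% of the 3-month list. Only 7 genes were called higher at 12 and lower at 3 months, and 6 the reverse. The actin ratio, a measure of RNA integrity that compares the 3′ and 5′ ends of actin, was 2.99 to 4.04 in Het_12M and 2.53 to 3.30 in KO_12M, but 5.76 to 8.85 in Het_3M and 3.24 to 6.40 in KO_3M. With this ratio as a covariate, 57 genes had an effect called higher and 55 lower at 12 than at 3 months.

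The difference between the effects, 12 months minus 3 months, was called for 87 genes, 49 higher (0.596%) and 38 lower (0.462%) at 12 months. Of these, 70 had effects of opposite sign at the 2 ages. Median scaling moved the median of this difference by -0.24 and called 23 higher and 182 lower, and the session fit called 2 higher and 12 lower. Leaving out 1 array at a time gave 11 to 58 higher and 7 to 50 lower, the lowest without heterozygous 12-month mouse 2. The count called higher moved by over 1.5 times without any 1 array other than knockout 12-month mouse 3 or knockout 3-month mouse 3, and the count called lower without any other than knockout 12-month mouse 3 or knockout 3-month mouse 1.

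Upp2 and Pck1 were called in all alternatives for this difference. Upp2 had signals of 430.1, 478.4 and 432.3 in Het_3M and 1147.1, 867.1 and 889.5 in KO_3M, so that the knockout mice were higher at 3 months and lower at 12 months. The difference between the effects was -4.19 (adjusted p = 1.92e-05). Pck1, the rate-limiting enzyme of gluconeogenesis, had signals of 627.3, 754.6 and 661.1 in Het_3M and 1908.2, 1963.5 and 2086.5 in KO_3M, and of 1613.1, 1640.5 and 1711.1 in Het_12M and 1113.1, 936.7 and 1163.6 in KO_12M. Its effect was 1.53 at 3 months and -0.63 at 12 months, a difference of -2.15 (adjusted p = 4.05e-06), although its other probe set had an effect of 0.50 at 12 months. In both genes the heterozygous signals of the 2 ages did not overlap either.

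Per1, a repressor of the core clock, had a mean signal of 13.1 ± 4.5 (SD, n = 3) in Het_3M and 126.3 ± 31.4 (SD, n = 3) in KO_3M, and signals of 27.7, 50.7 and 26.2 in Het_12M and 9.5, 17.2 and 31.3 in KO_12M. The groups were far apart at 3 months and overlapped at 12 months, and the difference between the effects was -2.82 (adjusted p = 0.00941). Of 32 clock genes, 6 had an effect called lower at 12 than at 3 months and 0 higher. Id3, an inhibitor of differentiation induced by BMP signals, went the other way, with an effect of -0.53 at 3 months and 0.93 at 12 months (difference 1.46, adjusted p = 0.0155). Neither Per1 nor Id3 was called in the session fit, with adjusted p of 0.143 for both.

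**Figure D5:**
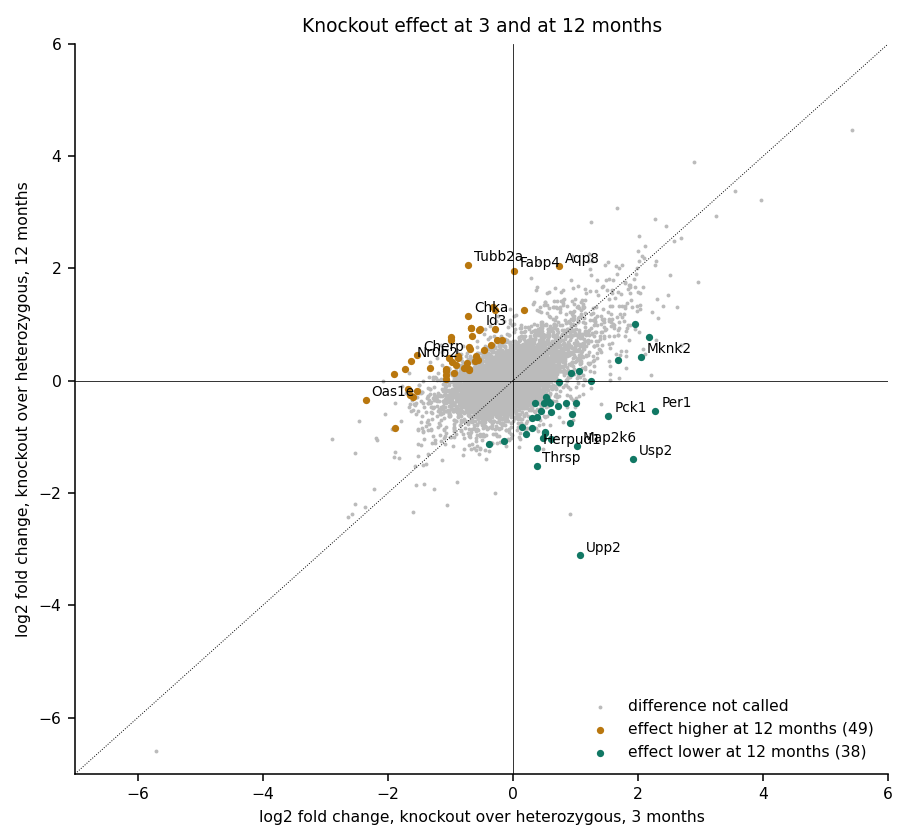
Knockout effect at 3 months (log2, horizontal axis) against that at 12 months (log2, vertical axis), 1 point per tested gene, with the 49 genes whose effect was called higher and the 38 called lower at 12 months coloured. Upp2, at 1.08 and -3.11, lies farthest from equal effects, and Lcn2 is the unlabelled point at the upper right with 5.42 and 4.46.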

How the data were processed

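Affymetrix MOE430A arrays were hybridised with liver RNA from 12 males, 1 mouse to an array. The deposited values are an intensity, extracted by the authors with MAS 5.0, per the submitters' processing notes, and already scaled between arrays. The array descriptions served only to find scan sessions and fluidics settings.

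Each array was brought to a common trimmed mean between percentiles 2 and 98 of signal. Of 22690 probe sets, 20380 were tied to 1 gene by the platform annotation, 691 to several and 1619 to none, and 20351 symbols were updated through gene IDs (RefSeq, GRCm38.p6). The probe set of highest mean stood for its gene. limma 3.58.1 (R 4.3.3) with an intensity trend was fitted to log2(signal + 16) of all 12 arrays with 4 group means, with Benjamini-Hochberg adjustment over 8217 genes. The script was tested on simulated data.

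The named genes were Abcb4, the 15 largest called rises and falls, the largest differences between ages, and the leading called members of each list. The gene lists overlap, and members and lists were chosen with earlier results of these data known. List members that were not called, and genes named for contrast, were chosen after their values were seen. Per the source labels, mouse 1 of Het_3M and mouse 1 of KO_3M are 12 months old, against their titles, which were followed. Equal replicate numbers did not pair the mice, since deviations of same-numbered 12-month mice correlated at 0.03, 0.04 and -0.09. Alternatives covered scaling, offset, filter, probe sets, trend, array weights, blocks, the actin ratio and left-out arrays. The number of arrays limits the precision.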

Additional observations from a re-analysis of the deposited data

Results flagged for a closer look

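For 32 named genes the knockout effect at 12 months differed from that at 3 months in limma's test of the difference (12-month minus 3-month effect, log2 scale, Benjamini-Hochberg adjusted over all tested genes). Genes whose effect was lower at 12 months included clock and clock output genes, namely Upp2 (-4.19), Usp2 (-3.32), Per1 (-2.82), Per3 (-1.50) and the glycogen synthase Gys2 (-1.43). Metabolic genes and regulators with a lower effect were Pck1 (-2.15), Thrsp (-1.90), Ppara (-1.14), Pdk2 (-1.04), Dgat2 (-0.97), the bile acid receptor Nr1h4 (-0.95) and the coagulation factor F11 (-0.93). Kinases, stress, splicing and immune genes with a lower effect were Map2k6 (-2.19), Rsrp1 (-1.66), Tk1 (-1.65), Mknk2 (-1.63), Herpud1 (-1.57) and Psmb9 (-1.40).

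The effect was higher at 12 months for Tubb2a (2.77), Zg16 (2.01), Oas1e (2.01), Nr0b2 (1.99), Cherp (1.99), Fabp4 (1.94), Zfp428 (1.92), Chka (1.88), Slc3a1 (1.77), Clpx (1.71), Id3 (1.46), Insig2 (1.46), Aqp8 (1.29) and Cyp2c38 (1.09). Usp2 had signals of 313.2, 305.7 and 259.8 in Het_12M and 73.1, 78.8 and 172.2 in KO_12M, and knockout effects of 1.92 at 3 months and -1.40 at 12 months. Its difference between ages was not called without heterozygous 12-month mouse 2 (-3.29, adjusted p = 0.0525), without the arrays of conflicting age (-3.27, adjusted p = 0.0513) or in the session fit (-2.43, adjusted p = 0.193). Its call at 12 months was lost in 13 alternatives, among them each of the 3 heterozygous mice and knockout mice 1 and 2 left out, with effects of -1.48 to -1.21. Several other genes lost the difference between ages in more alternatives than Usp2, among them those that follow. Without heterozygous 12-month mouse 2, adjusted p was 0.117 for Thrsp, 0.114 for Ppara, 0.117 for Psmb9 and 0.0681 for Fabp4. It was 0.1 for Zg16, 0.0978 for Cyp2c38 and 0.0681 for Insig2, and Rsrp1 had 0.0858 without heterozygous 12-month mouse 1.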

How the results depend on the processing

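At 12 months the main counts were 524 genes higher and 364 lower. The session fit gave 75 and 39, a call that also required a 2-fold change 211 and 71, and leaving out both arrays with a fluidics error 221 lower. Leaving out 1 array at a time gave 384 to 531 higher and 223 to 385 lower. For the difference between ages (49 higher, 38 lower), quantile normalization gave 30 higher, median scaling 23 higher and 182 lower, no filter 24 and 25, no intensity trend 17 lower, array weights 87 and 86, and the session fit 2 and 12. Leaving out the arrays with conflicting ages gave 19 higher, leaving out those with a fluidics error 9 and 11, and a 2-fold call 24 lower. Single arrays left out gave 11 to 58 higher and 7 to 50 lower. Rises were 56.3% of these calls, but 11.2% under median scaling and 14.3% in the session fit. With the replicate number as a block, the counts were 503 and 330 at 12 months and 26 and 20 for the difference between ages. Not every knockout array correlated best with its own number. Called directions reversed for Bcl2l11 (0.02) and Hnf4a (0.03) with the mean of probe sets, and for Hspa5 (0.07) in the session fit. Of 191 called named genes, the session fit kept 51 called. Leaving out the arrays of the other fluidics script, chosen after seeing the data, gave 441 and 300. The causes of these changes were not tested.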

Other observations

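Among genes whose 3 heterozygous 12-month mice lay within 0.5 on the log2 scale, those ranging most widely among the 3 knockout mice were listed after their values were seen, as a description without a test. Dbp ranged over 3.59, H2-T18, an MHC class I gene, over 2.36 and Elovl3, a fatty acid elongase, over 2.14. Knockout signals of H2-T18 were 176.1, 177.3 and 21.6, and those of Elovl3 were 589.3, 857.0 and 182.7, so that mouse 3 was the lowest in both. The clock gene Nr1d1 had 267.4, 62.6 and 289.7, with mouse 2 the lowest, and was not called at 12 months (adjusted p = 0.41). The metallothionein Mt2 had 159.2, 527.6 and 164.5, with mouse 2 the highest. Socs2, a growth hormone target, had 128.3, 122.6 and 27.4, against 118.1, 149.5 and 121.8 in heterozygous mice.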
